A study of Mus musculus with 24 samples.

Results

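The 10 genes described here are the nuclear genes for the core proteins that copy and transcribe mitochondrial DNA (mtDNA), together with a pair of transcription factors that act on nuclear genes for mitochondrial proteins. They were taken by symbol from the UMI-corrected count table as Tfam, Polg, Polg2, Polrmt, Twnk, Tfb1m, Tfb2m, Ssbp1, Nrf1 and Gabpa, 10 of the 55414 genes listed. All 10 passed the filter on low counts, which kept 10566 genes for testing. A UMI, or unique molecular identifier, is a random tag that lets copies of one RNA molecule be counted once, and levels are given below as CPM, the UMI counts of a gene scaled to a common library size after TMM adjustment.

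The RNA came from Tconv CD4+ cells, that is CD4+ CD25- cells left after magnetic sorting of mouse splenocytes, and it was read at the 3′ end of transcripts in bulk MARS-seq libraries. The mice were conplastic: all carried the C57BL/6J (B6) nuclear genome, and their mtDNA was either that of C57BL/6J (mtDNAB6, WT in the labels) or that of the NZB strain (mtDNANZB). Cells were resting (RES) or had been activated (ACT) for 72 h with CD3/CD28 beads and IL-2, which gave 4 groups of 6 libraries: resting and activated mtDNAB6 cells and resting and activated mtDNANZB cells. The study asked how activation changes expression in each mtDNA background, so the comparisons are activated against resting cells within a haplotype, mtDNANZB against mtDNAB6 cells within a state, and the difference between both responses. The methods describe most mice of the study as young adult males without giving age or sex for these libraries, and they give no time in culture for resting cells. The labels do not say which libraries came from separate mice, so the p-values measure the spread between these libraries, which may be technical.

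mtDNA is copied by its own replisome. DNA polymerase gamma, made of the catalytic subunit Polg and the accessory subunit Polg2, follows the helicase Twnk, while Ssbp1 coats the single strand that the helicase exposes. Transcription is carried out by the RNA polymerase Polrmt, which starts at mtDNA promoters with Tfam and Tfb2m, and short Polrmt transcripts also prime replication. Tfam in addition packs mtDNA into nucleoids, and Tfb1m, a relative of Tfb2m, methylates the small ribosomal RNA of the mitochondrion. Nrf1 and Gabpa bind the promoters of many nuclear genes for respiratory chain subunits and for several of the proteins above. T cells are known to enlarge their mitochondrial network after activation.

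Because Nrf1 and Gabpa are members themselves, the promoters of the 10 genes were searched for the core letters that these factors bind. The RefSeq promoter table used (GRCm38.p6) gives 250 bases before and 50 bases after a start site, and it matched all 10 genes with 12 promoters. The GABP/ETS core CCGGAAG, searched on both strands, was found in a promoter of 7 of the 10 genes, against 8.86% of all 32851 promoters of the same length and 22.4% of the 8015 tested genes with a promoter in the table. One base more, CCGGAAGT, which contains the shorter core, was found for 3 genes, against 3.89% of all promoters and 10.4% of the tested genes. The NRF1 core GCATGCGC, on either strand, was found for 2 genes, against 2.71% of all promoters and 6.43% of the tested genes. The stretches around the matches are shown for the 4 genes that changed in both haplotypes, and for Polrmt and Tfb2m, the 2 with an NRF1 core. They are written 5′ to 3′ on the strand of the gene, with the matched letters, or their reverse complement CTTCCGG or GCGCATGC, in capitals.
Tfam: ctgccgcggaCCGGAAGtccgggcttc
Gabpa: agggtaagtgCTTCCGGgtccctcagc
Polg: aggacctcacCCGGAAGtccctctgca
Polg2: gggtgacgctCTTCCGGgggcgtggtc
Polrmt: gagtatttctGCGCATGCtctcttgccg
Tfb2m: taggtcgttcGCATGCGCcattcgtaat
Each stretch was placed through its whole promoter, which was found once on its chromosome in GRCm39. The Tfam stretch lies at chr10:71073905-71073931 on the minus strand, in an annotated exon, with the core 47 bases before the RefSeq start. That of Gabpa lies at chr16:84631909-84631935 on the plus strand, partly in an exon and also within Atp5pf on the other strand, with the core 93 bases before the start. The Polg stretch is at chr7:79116043-79116069 on the minus strand, in an exon, 38 bases before the start, and the Polg2 stretch is at chr11:106670376-106670402 on the minus strand, partly in an exon, 29 bases before the start. The Polrmt stretch is at chr10:79582531-79582558 on the minus strand, outside the annotated gene, 133 bases before the start, and the Tfb2m stretch is at chr1:179373811-179373838 on the minus strand, in an exon, 13 bases after the start. Polrmt also had a GABP/ETS core, 43 bases before the start, whose stretch is not shown. The GABP/ETS core thus stood in the promoters of genes that rose, Tfam and Gabpa, and of genes that fell, Polg and Polg2. A match is a description of the letters and no record of binding in these cells.

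Libraries held 641467 to 6449395 UMI counts, apart from resting mtDNANZB replicate 2 with 51409, in which the 10 genes had 18 counts in all and a single count was worth 16.9 CPM. Its values are included in the lows, medians and highs of its group below unless said otherwise. By the ratio of the total of the second deposited count table to the UMI count total the libraries fell into 3 sets of 8, at 1.88 to 1.96, 2.11 to 2.24 and 2.68 to 2.80, and activated mtDNAB6 cells had 5 libraries in the first set and 1 in the second while resting mtDNAB6 cells had 4 in the second and 2 in the third. T cell markers (Cd3d, Cd3e, Cd3g and Cd4) were present in all libraries, at a summed 1191 to 2445 CPM, and 1067 CPM in resting mtDNANZB replicate 2. Activation markers (Il2ra, Tnfrsf4, Tnfrsf9 and Mki67) summed to 76.5 to 262 CPM at rest and 402 to 759 CPM after activation. RNA of other blood cells moved with the state as well. Myeloid markers (4 of 4 detected in every group) summed to 434 to 2761 CPM at rest and 5.88 to 97.8 CPM after activation, neutrophil markers (5 of 5) to 203 to 10103 and 4.03 to 86.3 CPM, and erythroid markers (5 of 5) to 88.4 to 7043 and 16.2 to 171 CPM. The erythroid fall was that of the globin genes. Hemgn changed by -0.69 on the log2 scale in mtDNAB6 cells (edgeR adjusted p = 0.261) and by 0.86 in mtDNANZB cells (edgeR adjusted p = 0.199). NK markers (2 of 2) summed to 5.62 to 13.7 CPM at rest, with 33.9 CPM in resting mtDNANZB replicate 2, and 0 to 3.39 CPM after activation. B cell markers (4 of 4) ran from 204 to 1104 CPM at rest and 73.1 to 1006 CPM after activation, Treg markers (2 of 2) from 18.4 to 32.0 and 13.0 to 46.0 CPM, and CD8 markers (2 of 2) from 38.1 to 142 and 82.0 to 534 CPM, both being 16.9 CPM in resting mtDNANZB replicate 2. Cd8a rose by 2.35 in mtDNAB6 (edgeR adjusted p = 5.76e-05) and 1.90 in mtDNANZB cells (edgeR adjusted p = 0.000799). Cd8b1 rose by 1.79 (edgeR adjusted p = 0.00091) and 1.44 (edgeR adjusted p = 0.00629). In mtDNAB6 cells the CD8 sums did not overlap, at 52.3 to 111 CPM at rest and 161 to 405 CPM after activation. Ikzf2 fell in mtDNAB6 cells (-0.88, edgeR adjusted p = 0.00315) and Foxp3 rose in mtDNANZB cells (0.67, edgeR adjusted p = 0.0480). The part of these other cells in the changes described next was not tested, and in bulk RNA fewer cells of a type and less RNA per cell cannot be told apart.

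Activation changed the 10 genes in both directions, with the mtDNA packaging factor Tfam and the regulator Gabpa higher and both subunits of polymerase gamma lower in each haplotype. In mtDNAB6 cells 3 genes rose (Tfam, Nrf1 and Gabpa), beside 22.4% of all genes tested that were called higher, and 3 fell (Polg, Polg2 and Twnk), beside 24.5% called lower. In mtDNANZB cells 3 genes rose (Tfam, Ssbp1 and Gabpa), beside 25.2%, and 3 fell (Polg, Polg2 and Tfb2m), beside 28.4%. A call needed an adjusted p of at most 0.05 in edgeR's quasi-likelihood test over all genes, with no limit on the fold. These shares of 3 in 10 are near those of all genes, and the median log2 fold change of the 10 genes was 0.04 in mtDNAB6 and 0.02 in mtDNANZB cells, beside -0.03 and -0.06 over all genes. Scaling by library totals alone raised the median of all genes by 0.12 on the log2 scale in both haplotypes and turned the split of calls over all genes from 2368 higher and 2590 lower to 3016 and 2008 in mtDNAB6 cells. With the library set as a term, 1 gene rose (Nrf1) and 1 fell (Polg) in mtDNAB6 cells, while in mtDNANZB cells 3 rose (Tfam, Ssbp1 and Nrf1) and 3 fell (Polg, Polg2 and Tfb2m).

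**Figure D1:**
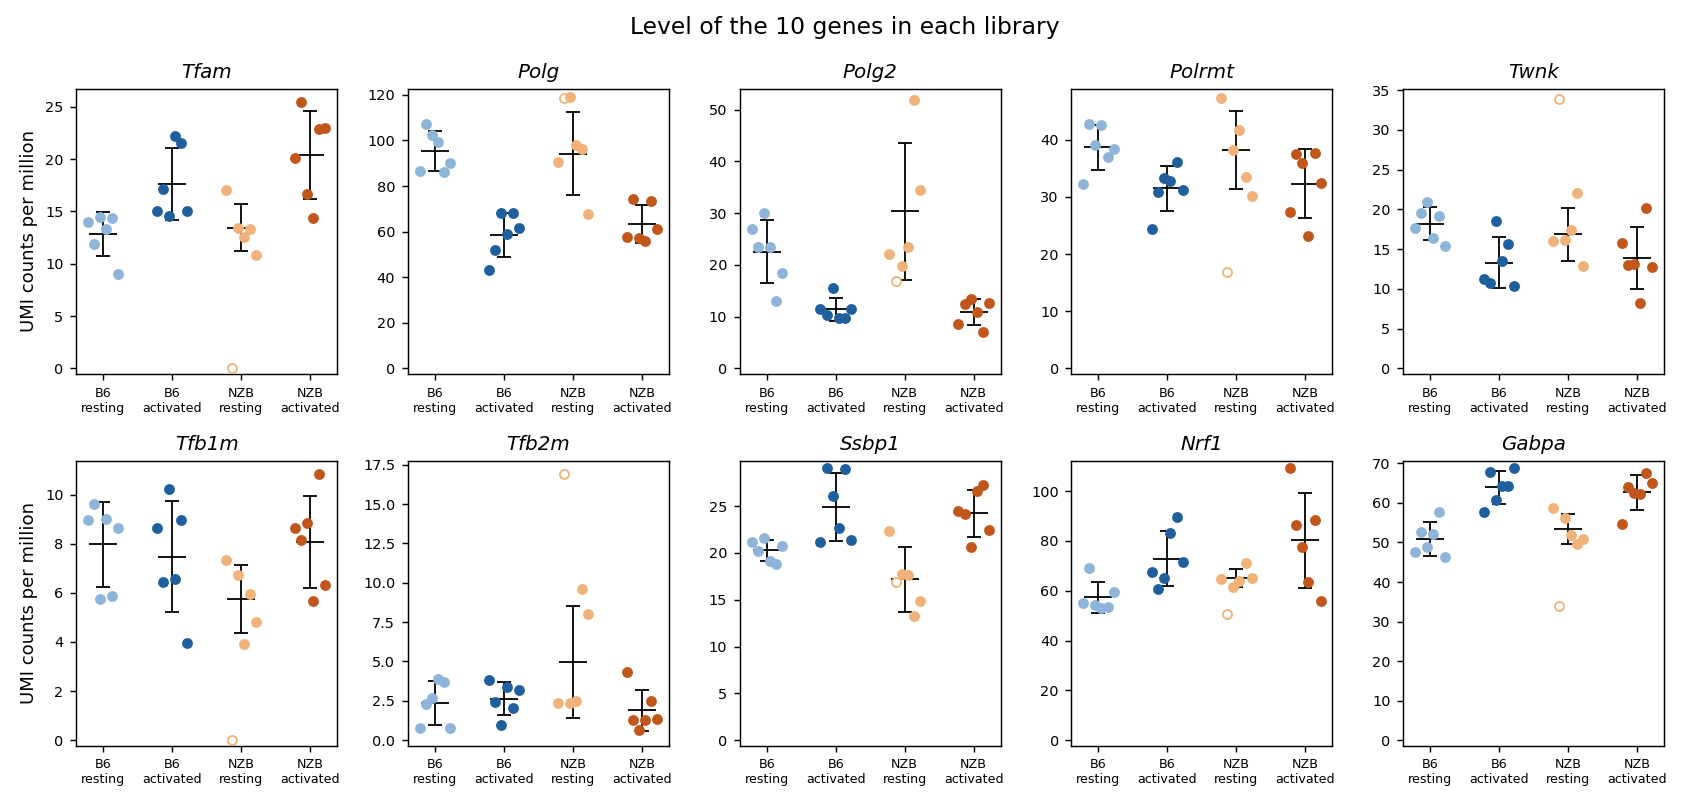
Level of each of the 10 genes in every library, in CPM (y axis, from 0), for the 4 groups (x axis). Filled points are libraries, the open point is resting mtDNANZB replicate 2 with 51409 counts, and black bars give the mean ± SD without that library. Polg lay at 86.3 to 107 CPM in resting and at 43.0 to 68.1 CPM in activated mtDNAB6 libraries.

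Tfam (ENSMUSG00000003923, chr10:71061287-71074110, minus strand), which packs mtDNA and starts its transcription, was among the genes that rose in both haplotypes. In mtDNAB6 cells its level was 9.03, 13.6 and 14.5 CPM (lowest, median and highest of 6 libraries) at rest and 14.5, 16.1 and 22.3 CPM after activation. In mtDNANZB cells it was 0, 12.9 and 17.0 CPM at rest, the 0 coming from replicate 2 and the other 5 libraries starting at 10.8 CPM, and 14.4, 21.5 and 25.4 CPM after activation. The mtDNAB6 groups met at 14.5 CPM without overlapping, the highest activated libraries being replicates 4 and 5, and the mtDNANZB groups overlapped between 14.4 and 17.0 CPM. The rise was 1.37-fold in mtDNAB6 cells (log2 fold change 0.45, SE 0.18, edgeR adjusted p = 0.0367) and 1.55-fold in mtDNANZB cells (0.63, SE 0.19, edgeR adjusted p = 0.00621). The mtDNAB6 call was lost without activated replicate 4 (log2 0.37) or 5 (0.39) and without resting replicate 2 (0.43), 4 (0.46) or 6 (0.41), and in 7 of 13 alternative fits (values of 0.41 to 0.58 over the 13, adjusted p up to 0.140). The mtDNANZB call held when any 1 library was left out (0.56 to 0.74) and was lost in 3 of 13 alternative fits, the smallest value being 0.25 (edgeR adjusted p = 0.389) without resting replicates 2 and 6 and activated replicate 6 and with the replicate block by label number. By mean level the order was activated mtDNANZB (20.4 ± 4.21 CPM, SD, n = 6), activated mtDNAB6 (17.6 ± 3.45, n = 6), resting mtDNANZB (13.4 ± 2.25, n = 5 without replicate 2) and resting mtDNAB6 (12.8 ± 2.10, n = 6), and neighbours of the same state did not differ beyond their spread.

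Of the pair of methyltransferase-related factors, Tfb2m, which melts the promoter for Polrmt, was read from few counts. Tfb2m (ENSMUSG00000026492, chr1:179355610-179374548, minus strand) had 51 counts over the 6 resting and 58 over the 6 activated mtDNAB6 libraries, and 65 and 29 in mtDNANZB cells. Its level in mtDNANZB cells was 2.34, 5.27 and 16.9 CPM at rest (lowest, median and highest) and 0.654, 1.31 and 4.31 CPM after activation. The highest resting value was 1 count in replicate 2, and of the other 5 libraries replicates 5 and 6 stood at 9.62 and 8.03 CPM while the rest lay at 2.34 to 2.52 CPM, so the groups overlapped. The fall in mtDNANZB cells was 3.07-fold (log2 fold change -1.62, SE 0.50, edgeR adjusted p = 0.00802). It held when any 1 library was left out (-1.81 to -1.27), and it was lost in 4 of 11 alternative fits. Without resting replicates 2 and 6 and activated replicate 6 it was -1.23 (edgeR adjusted p = 0.0753), and with the replicate block by label number as well it was -0.66 (edgeR adjusted p = 0.586). In mtDNAB6 cells Tfb2m stood at 0.748 to 3.92 CPM at rest and 0.991 to 3.82 CPM after activation, with no call (log2 0.16, SE 0.45, edgeR adjusted p = 0.792). By mean level resting mtDNANZB cells came first (4.97 ± 3.56 CPM, n = 5), then activated mtDNAB6 (2.64 ± 1.03), resting mtDNAB6 (2.36 ± 1.38) and activated mtDNANZB cells (1.90 ± 1.32).

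Tfb1m (ENSMUSG00000036983, chr17:3563847-3608190, minus strand), the methyltransferase of the small mitochondrial ribosomal RNA, ranged from 5.74 to 9.60 CPM in resting and 3.96 to 10.2 CPM in activated mtDNAB6 libraries. In mtDNANZB cells it ranged from 3.92 to 7.34 CPM in the 5 deeper resting libraries, with no count in replicate 2, and from 5.66 to 10.8 CPM after activation. Its log2 fold change was -0.07 (SE 0.22, edgeR adjusted p = 0.905) in mtDNAB6 and 0.49 (SE 0.25, edgeR adjusted p = 0.0988) in mtDNANZB cells, and the small mtDNAB6 value took the other sign when scaled by library totals alone (0.05). Tiam2, on the other strand, overlaps Tfb1m where 3′ ends of annotated transcripts are read, and its log2 fold changes were -3.84 and -3.78. The overlap is outside the canonical transcripts, and the strand used in counting is not given in the sources used here.

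Polrmt (ENSMUSG00000020329, chr10:79571957-79582420, minus strand), the polymerase itself, passed the test in neither haplotype, although it did in 2 of 13 alternative fits in mtDNAB6 cells (edgeR adjusted p down to 0.0240) and in 1 of 13 in mtDNANZB cells (-0.53, edgeR adjusted p = 0.0323). It stood at 32.2 to 42.7 CPM in resting and 24.4 to 36.1 CPM in activated mtDNAB6 libraries, with a log2 fold change of -0.29 (SE 0.13, edgeR adjusted p = 0.0743). The level in mtDNANZB cells was 30.1 to 47.4 CPM in the 5 deeper resting libraries and 23.1 to 37.8 CPM after activation (-0.21, SE 0.14, edgeR adjusted p = 0.225). The 95% interval ran from -0.57 to -0.02 in mtDNAB6 and from -0.50 to 0.09 in mtDNANZB cells.

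Of the replisome, Polg (ENSMUSG00000039176, chr7:79095974-79116110, minus strand), the catalytic subunit of polymerase gamma, fell in both haplotypes. In mtDNAB6 cells its level was 86.3, 94.9 and 107 CPM at rest and 43.0, 60.3 and 68.1 CPM after activation (lowest, median and highest of 6). In mtDNANZB cells it was 67.9, 97.1 and 119 CPM at rest and 55.8, 59.4 and 74.4 CPM after activation. The mtDNAB6 groups did not overlap, and in mtDNANZB cells resting replicate 6, at 67.9 CPM, lay within the range of the activated libraries. The decline was 1.63-fold in mtDNAB6 cells (log2 fold change -0.70, SE 0.13, edgeR adjusted p = 6.4e-05) and 1.50-fold in mtDNANZB cells (-0.58, SE 0.13, edgeR adjusted p = 0.000622). Both calls held in all 13 alternative fits and with any 1 library left out. The order by mean level was resting mtDNAB6 (95.4 ± 8.83 CPM), resting mtDNANZB (94.3 ± 18.3, n = 5), activated mtDNANZB (63.3 ± 8.43) and activated mtDNAB6 cells (58.6 ± 9.73), with no difference beyond the spread between neighbours of the same state. Fanci, a DNA repair gene on the other strand whose annotated 3′ ends overlap those of Polg outside the canonical transcripts, moved the other way (log2 fold change 1.27 in mtDNAB6 and 1.77 in mtDNANZB cells).

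Polg2 (ENSMUSG00000020718, chr11:106658823-106670384, minus strand), the accessory subunit that holds the polymerase on its template, fell as well. In mtDNAB6 cells it stood at 12.9, 23.5 and 30.0 CPM at rest and 9.72, 10.9 and 15.5 CPM after activation. In mtDNANZB cells it stood at 16.9, 22.8 and 51.8 CPM at rest, the 16.9 being 1 count in replicate 2 and the other 5 libraries starting at 19.8 CPM, and 7.12, 11.6 and 13.4 CPM after activation. In mtDNAB6 cells the lowest resting library, replicate 5, lay below the highest activated one, replicate 3, and in mtDNANZB cells the groups did not overlap, with resting replicates 5 and 6 at 51.8 and 34.5 CPM above all others. The decline was 1.98-fold in mtDNAB6 cells (log2 fold change -0.98, SE 0.23, edgeR adjusted p = 0.00104) and 2.67-fold in mtDNANZB cells (-1.42, SE 0.24, edgeR adjusted p = 2.57e-05). Both held with any 1 library left out, the mtDNANZB value being -1.15 without resting replicate 5, and the mtDNAB6 call was lost with the library set as a term (-0.78, edgeR adjusted p = 0.0613). By mean level the order was resting mtDNANZB (30.3 ± 13.3 CPM, n = 5), resting mtDNAB6 (22.6 ± 6.10), activated mtDNAB6 (11.4 ± 2.17) and activated mtDNANZB cells (10.8 ± 2.49). Milr1, on the other strand, has annotated 3′ ends that overlap those of Polg2 outside the canonical transcripts. It was called in neither haplotype (log2 fold change 0.07, edgeR adjusted p = 0.964, in mtDNAB6 and 0.23, edgeR adjusted p = 0.316, in mtDNANZB cells).

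Twnk (ENSMUSG00000025209, chr19:44994102-45001204, plus strand), the replicative helicase, ranged from 15.4 to 20.9 CPM in resting and 10.3 to 18.5 CPM in activated mtDNAB6 libraries and fell 1.37-fold (log2 fold change -0.45, SE 0.18, edgeR adjusted p = 0.0461). This call lay close to the threshold: it was kept in 8 of the 24 fits that left out 1 library, with values of -0.56 to -0.37, and in 5 of 13 alternative fits. The 16 libraries without which it was lost were all resting mtDNAB6 libraries but replicate 4, activated mtDNAB6 replicates 1, 2, 4 and 6, resting mtDNANZB replicates 1, 2, 3 and 4, and activated mtDNANZB replicates 2, 3 and 6. In mtDNANZB cells Twnk ranged from 12.8 to 22.0 CPM in the 5 deeper resting and 8.28 to 20.1 CPM in the activated libraries (-0.32, SE 0.20, edgeR adjusted p = 0.183), and it passed the threshold there without activated replicate 5 (-0.47). Ssbp1 (ENSMUSG00000029911, chr6:40448286-40524298, plus strand), the single-strand binding protein, went the other way. It ranged from 18.8 to 21.6 CPM in resting and 21.1 to 29.1 CPM in activated mtDNAB6 libraries, with no call (0.30, SE 0.13, edgeR adjusted p = 0.0548). It ranged from 13.3 to 22.4 CPM in the resting and 20.6 to 27.2 CPM in the activated mtDNANZB libraries and rose there 1.40-fold (0.48, SE 0.14, edgeR adjusted p = 0.00423), a call lost in 2 of 13 alternative fits. The mtDNAB6 value of Ssbp1 passed the threshold in 2 of 13 alternative fits and when any 1 of 8 libraries was left out: resting replicate 3 or 6 or activated replicate 1 or 6 of the same cells, or resting replicate 1, 2, 5 or 6 of the mtDNANZB cells.

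**Figure D2:**
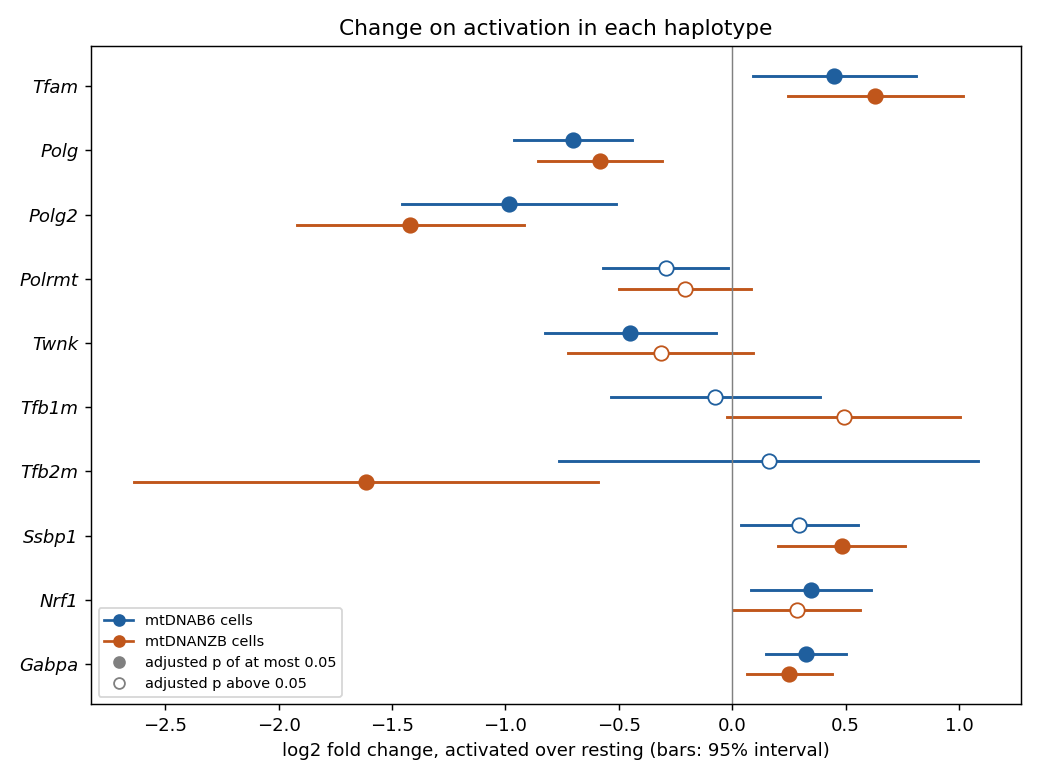
Log2 fold change of each gene, activated over resting, with its 95% interval (x axis) in mtDNAB6 (blue) and mtDNANZB cells (orange). Filled points have an edgeR adjusted p of at most 0.05, and the intervals of both haplotypes overlap for every gene, with Tfb2m the farthest apart at 0.16 and -1.62.

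Of the nuclear regulators among the 10, Gabpa (ENSMUSG00000008976, chr16:84631140-84660672, plus strand), the DNA-binding subunit of GABP, rose by a small amount in both haplotypes. In mtDNAB6 cells it stood at 46.3, 50.5 and 57.8 CPM at rest and 57.8, 64.2 and 68.9 CPM after activation. Its mtDNANZB levels were 33.9, 51.4 and 58.7 CPM at rest, the lowest from replicate 2 and the next at 49.5 CPM, and 54.6, 63.2 and 67.5 CPM after activation. The mtDNAB6 groups touched at 57.8 CPM without overlapping, and in mtDNANZB cells activated replicate 1, at 54.6 CPM, lay within the resting range. The rise was 1.25-fold in mtDNAB6 cells (log2 fold change 0.33, SE 0.09, edgeR adjusted p = 0.00286) and 1.19-fold in mtDNANZB cells (0.25, SE 0.09, edgeR adjusted p = 0.0215). The mtDNANZB call held with any 1 library left out but was lost in 10 of 13 alternative fits (edgeR adjusted p up to 0.498), and the mtDNAB6 call was lost in 2, both with the library set as a term. Atp5pf, a subunit gene of the ATP synthase that shares the region and lies on the other strand, rose by 0.85 and 1.08 on the log2 scale.

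Nrf1 (ENSMUSG00000058440, chr6:30047892-30153462, plus strand) stood at 52.9 to 69.2 CPM in resting and 60.6 to 89.6 CPM in activated mtDNAB6 libraries and rose 1.27-fold (log2 fold change 0.35, SE 0.13, edgeR adjusted p = 0.0281). The call was lost in 3 of 13 alternative fits and without activated replicate 4 (0.31) or 5 (0.28) or resting replicate 1 (0.34), 4 (0.33) or 5 (0.33). The mtDNANZB libraries stood at 61.5 to 71.0 CPM in the 5 deeper resting libraries and spread over 56.0 to 109 CPM after activation, with no call (0.28, SE 0.14, edgeR adjusted p = 0.0793). It passed the threshold there in 4 of 13 alternative fits and without activated replicate 4 (0.34) or 6 (0.38), without resting replicate 2 (0.32), or without resting mtDNAB6 replicate 3 (0.33) or 6 (0.33). By mean level the order for Nrf1 was activated mtDNANZB (80.2 ± 19.1 CPM), activated mtDNAB6 (72.9 ± 11.2), resting mtDNANZB (65.2 ± 3.54, n = 5) and resting mtDNAB6 cells (57.4 ± 6.24), and neighbours of the same state did not pass the test of their difference.

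Between the haplotypes, the question was whether cells with the same nuclear genome and different mtDNA held different levels of these genes. By edgeR none of the 10 genes was called in either direction at rest, beside 1.9% of all genes called higher and 0.861% called lower in mtDNANZB cells. After activation none of the 10 was called, beside 0% of all genes in either direction, and none differed in response, again beside 0% in either direction. The counts over all genes behind these shares moved with the libraries. At rest, 201 genes higher and 91 lower became 0 and 0 without resting mtDNANZB replicate 5, without resting mtDNAB6 replicate 4, or with only the 2 groups compared, 0 and 1 with the library set as a term, and 447 and 125 without resting mtDNANZB replicate 1. They were 0 and 2, 2 and 6, 20 and 7, and 113 and 62 without resting mtDNAB6 replicates 1, 3, 5 and 6, and 435 and 152, 366 and 112, and 158 and 369 without resting mtDNANZB replicates 3, 4 and 6. For the difference of response they became 95 and 18 without resting mtDNANZB replicates 2 and 6 and activated replicate 6. Of these libraries only resting replicate 2, with 51409 counts, was shallow, as resting replicate 6 held 2711332 and activated replicate 6 held 6449395. DESeq2 called none of the 10 in these comparisons either. At an unadjusted p under 0.05 stood 1 of the 10 at rest and 1 in the difference of responses, both times Tfb2m, and 0 after activation, beside 2196, 1512 and 327 of all genes. At rest Tfb2m was 2.03-fold higher in mtDNANZB cells (log2 difference 1.02, SE 0.45, unadjusted p = 0.0330, edgeR adjusted p = 0.197), and without resting mtDNANZB replicate 5, 1 of its 2 high libraries, the difference was 0.68. Its response differed between haplotypes by -1.78 (SE 0.67, unadjusted p = 0.0138, edgeR adjusted p = 0.244).

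For the other 9 genes the intervals bound what these libraries could show. At rest Tfam differed by 0.04 (95% interval -0.35 to 0.43), Polg by -0.00098 (-0.27 to 0.27), Polrmt by -0.03 (-0.32 to 0.26) and Gabpa by 0.06 (-0.13 to 0.24) on the log2 scale, mtDNANZB minus mtDNAB6. The intervals were wider for Polg2 (0.40, -0.07 to 0.88) and Tfb1m (-0.48, -0.98 to 0.03), and the Polg2 difference was 0.14 without resting mtDNANZB replicate 5. After activation the differences were 0.22 for Tfam (-0.14 to 0.58), 0.12 for Polg (-0.15 to 0.38) and -0.03 for Polg2 (-0.53 to 0.47), and those of Twnk, Ssbp1, Nrf1 and Gabpa lay between -0.04 and 0.11. The response of Tfam differed by 0.18 (-0.35 to 0.71) and that of Polg2 by -0.44 (-1.12 to 0.25), which became -0.17 without resting mtDNANZB replicate 5.

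Resting mtDNANZB replicates 5 and 6, which were high in Polg2 and Tfb2m, were high in 1 more gene of this kind. Gabpb1, the partner subunit of Gabpa and the only one of 12 nuclear regulators tested that was called between the haplotypes at rest, was at 95.8 and 79.1 CPM in these 2 libraries, at 20.4 to 26.5 CPM in 3 others, without a count in replicate 2, and at 15.9 to 24.1 CPM in resting mtDNAB6 cells. It was picked out after its values were seen. Its difference at rest was 1.21 (SE 0.30, edgeR adjusted p = 0.0385), and it fell to 0.83 (edgeR adjusted p = 0.228) without replicate 5 and to 0.96 (0.0602) without replicate 6. It also missed the threshold without any 1 of 5 resting mtDNAB6 libraries, all but replicate 2 (values of 1.13 to 1.24), and in 7 of 11 alternative fits (values of 0.86 to 1.22 over the 11, adjusted p up to 0.189), among them the one that added the library set to the model (0.97, edgeR adjusted p = 0.150). The summed activation markers of replicates 5 and 6 were 180 and 262 CPM, above the 76.5 to 133 CPM of all other resting libraries. In replicate 5 the single markers did not all share this. Its Mki67 (6.42 CPM) and Il2ra (1.37 CPM) were the lowest of all resting libraries with at least 100000 counts. Markers of other cells set replicates 5 and 6 apart from each other: neutrophil markers summed to 203 CPM in replicate 5, the lowest of all resting libraries, and to 10103 CPM in replicate 6, the highest, where myeloid markers were also highest, at 2761 CPM. The part of these in the high values was not tested.

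A ratio of genes within a library does not depend on how libraries are scaled, so 3 ratios were compared over the 23 libraries with at least 100000 counts. The log2 ratio of Polg2 to Polg counts, accessory to catalytic subunit, was -2.12 ± 0.38 (SD, n = 6) in resting and -2.35 ± 0.32 (n = 6) in activated mtDNAB6 cells, and -1.70 ± 0.74 (n = 5) and -2.54 ± 0.44 (n = 6) in mtDNANZB cells. The fall of 0.84 in mtDNANZB cells missed the threshold after adjustment over the 12 comparisons of ratios (two-sided exact permutation test, p = 0.0390, adjusted p = 0.117), and resting replicates 5 and 6 again held the highest ratios, at -0.89 and -0.97. It passed the threshold without resting replicate 3 (-1.05). The log2 ratio of Tfb2m to Tfb1m fell by 1.72 in mtDNANZB cells (exact permutation p = 0.0195, adjusted p = 0.0779), which passed without activated replicate 1 (-1.98) or resting replicate 1 (-2.01) or 3 (-1.97), and it stood 0.41 higher after activation in mtDNAB6 cells (p = 0.515, adjusted p = 0.556, exact permutation test).

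The third ratio set Tfam against the mRNAs counted from the genome it packs and transcribes. The log2 ratio of Tfam to the summed mRNAs encoded by mtDNA ran from -3.79 to -2.69 in resting and from -2.36 to -1.47 in activated mtDNAB6 libraries, and from -3.91 to -2.96 and -2.90 to -0.69 in mtDNANZB libraries. The groups did not overlap in either haplotype, though in mtDNANZB cells the lowest activated library, replicate 1, lay just above the highest resting one, replicate 1. The ratio rose by 1.48 in mtDNAB6 cells (exact permutation p = 0.00216, the smallest this design allows, adjusted p = 0.0260) and by 1.91 in mtDNANZB cells (exact permutation p = 0.00433, adjusted p = 0.0260). The rise in mtDNANZB cells missed the threshold when resting replicate 4 (1.86), 5 (1.88) or 6 (1.95) was left out, each leaving 4 resting libraries. The mRNAs encoded by mtDNA made up 0.00365 to 0.0197% of the counts in these 23 libraries, and 0.486% in resting mtDNANZB replicate 2, and Tfam lay below this sum in all 23. Of the 13 mRNAs summed, 4 passed the filter on low counts. The cytochrome b mRNA mt-Cytb gave most of the sum in every group (1623 counts in resting and 778 in activated mtDNAB6 cells). Its part was larger in mtDNANZB cells, and the ratio mainly sets Tfam against mt-Cytb. The summed mRNAs in the denominator also changed on activation, as described with the wider lists.

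**Figure D3:**
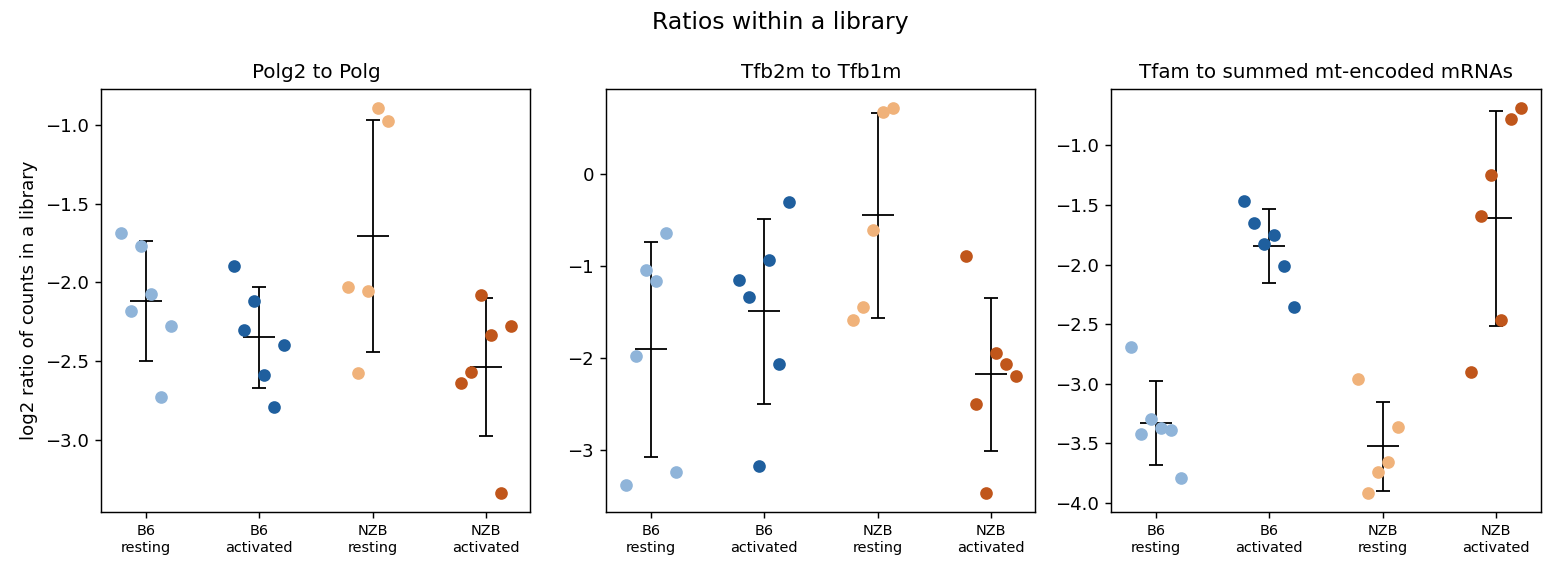
Log2 ratio of counts within each library (y axis) for Polg2 to Polg, Tfb2m to Tfb1m and Tfam to the summed mRNAs encoded by mtDNA, in the 4 groups (x axis). Points are the 23 libraries with at least 100000 counts and black bars are mean ± SD. The Tfam ratio lies at or below -2.69 in every resting and at or above -2.90 in every activated library.

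The other genes of the pathway were taken from lists, and each count stands beside the shares of all genes given above. Of 12 tested genes of mtDNA maintenance, such as nucleases, topoisomerases and ligases of the organelle, 2 rose and 1 fell in mtDNAB6 cells and 4 rose and 1 fell in mtDNANZB cells (median log2 fold change 0.01 and 0.20). Fen1, the flap endonuclease of nuclear and mitochondrial replication, rose by 1.02 (SE 0.18, edgeR adjusted p = 4.81e-05) and 1.50 (edgeR adjusted p = 5.5e-07), from a mean of 81.6 to 166 CPM in mtDNAB6 and 66.8 (n = 5 without replicate 2) to 192 CPM in mtDNANZB cells. Lonp1, the matrix protease that degrades Tfam, rose by 0.35 (edgeR adjusted p = 0.00978) and 0.41 (edgeR adjusted p = 0.00378).

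Of 24 listed genes for mtDNA transcription and RNA processing, 17 were tested, of which 3 rose and 1 fell in mtDNAB6 cells and 6 rose and 0 fell in mtDNANZB cells (median 0.00 and 0.12). Mterf4, which brings a methyltransferase to mitochondrial ribosomal RNA, rose by 0.55 (edgeR adjusted p = 0.0180) and 0.95 (edgeR adjusted p = 0.00036). Mrpl12, a ribosomal protein that also binds Polrmt, rose by 0.41 (edgeR adjusted p = 0.0191) and 1.06 (edgeR adjusted p = 2.46e-06), the mtDNAB6 call of Mrpl12 being lost without activated replicate 5 (0.36) or resting replicate 2 (0.34).

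Of 16 listed genes that supply nucleotides to mtDNA or limit that supply, 14 were tested, of which 6 rose and 4 fell in mtDNAB6 cells and 6 rose and 3 fell in mtDNANZB cells (median 0.16 and 0.27). Among those that rose was Samhd1, which breaks down deoxynucleotides (1.65, edgeR adjusted p = 1.22e-10, and 1.84, edgeR adjusted p = 2.29e-11). The ribonucleotide reductase genes of dividing cells rose, Rrm1 by 1.47 (edgeR adjusted p = 2.29e-05) and 2.33 (edgeR adjusted p = 8.33e-08) and Rrm2 by 1.86 (edgeR adjusted p = 0.000143) and 2.70 (edgeR adjusted p = 3.78e-06). Rrm2b, the reductase subunit that serves mtDNA in cells that do not divide, fell in both haplotypes, with log2 fold changes of -0.91 (edgeR adjusted p = 0.0117) and -1.52 (edgeR adjusted p = 0.000406). Slc25a36, a mitochondrial pyrimidine nucleotide carrier, fell by 1.78 in mtDNANZB cells (edgeR adjusted p = 0.000231) and by 0.86 in mtDNAB6 cells (edgeR adjusted p = 0.0428). The mtDNAB6 call of Slc25a36 was lost in 6 of 13 alternative fits and without activated replicate 1, 3, 4 or 6, resting replicate 2, 5 or 6, or resting mtDNANZB replicate 2 (values of -0.88 to -0.68).

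Of 13 listed nuclear regulators 12 were tested, of which 2 rose and 5 fell in mtDNAB6 cells and 1 rose and 6 fell in mtDNANZB cells (median -0.34 and -0.51). Hcfc1, a coregulator of GABP, rose by 0.48 (edgeR adjusted p = 0.00272) and 0.51 (edgeR adjusted p = 0.00215). Nfe2l2, which encodes the antioxidant factor NRF2 and is unrelated to Nrf1, fell (-0.99, edgeR adjusted p = 1.03e-05, and -1.39, edgeR adjusted p = 1.23e-07), as did the corepressor Nrip1 (-1.10, edgeR adjusted p = 0.000794, and -1.94, edgeR adjusted p = 2.96e-06). The coactivator gene Ppargc1a had too few counts to be tested.

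Of the 13 mRNAs that mtDNA encodes, 4 were tested, of which 0 rose in either haplotype and 1 fell in mtDNAB6 and 3 in mtDNANZB cells (median -0.95 and -2.71). The 1 called in both was mt-Cytb, the cytochrome b gene, which had log2 fold changes of -1.11 (edgeR adjusted p = 0.0355) and -2.02 (edgeR adjusted p = 0.000726). Its level was 49.4, 75.8 and 98.5 CPM at rest and 17.3, 33.9 and 53.5 CPM after activation in mtDNAB6 cells, and 95.2, 143 and 1220 CPM and 30.4, 48.6 and 93.5 CPM in mtDNANZB cells, where the resting maximum is replicate 2. Without that library mt-Cytb fell by 1.38 on the log2 scale in mtDNANZB cells. The mtDNANZB median of -2.71 includes that library, where mRNAs encoded by mtDNA made up 0.486% of counts, against at most 0.0197% in any other. The mtDNANZB falls of mt-Nd1 (-3.40, SE 1.30) and mt-Nd4 (-4.03, SE 1.30) include it as well. How far this median and these falls rest on it was not tested. The mtDNAB6 call of mt-Cytb was lost in 5 of 13 alternative fits and without activated replicate 1, 2 or 3 or resting replicate 3, 5 or 6 (values of -1.10 to -0.96). Levels of these mRNAs rest on reads with a poly-A tail at the 3′ end and on mapping to GRCm39, whose mtDNA is that of C57BL/6J.

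**Figure D4:**
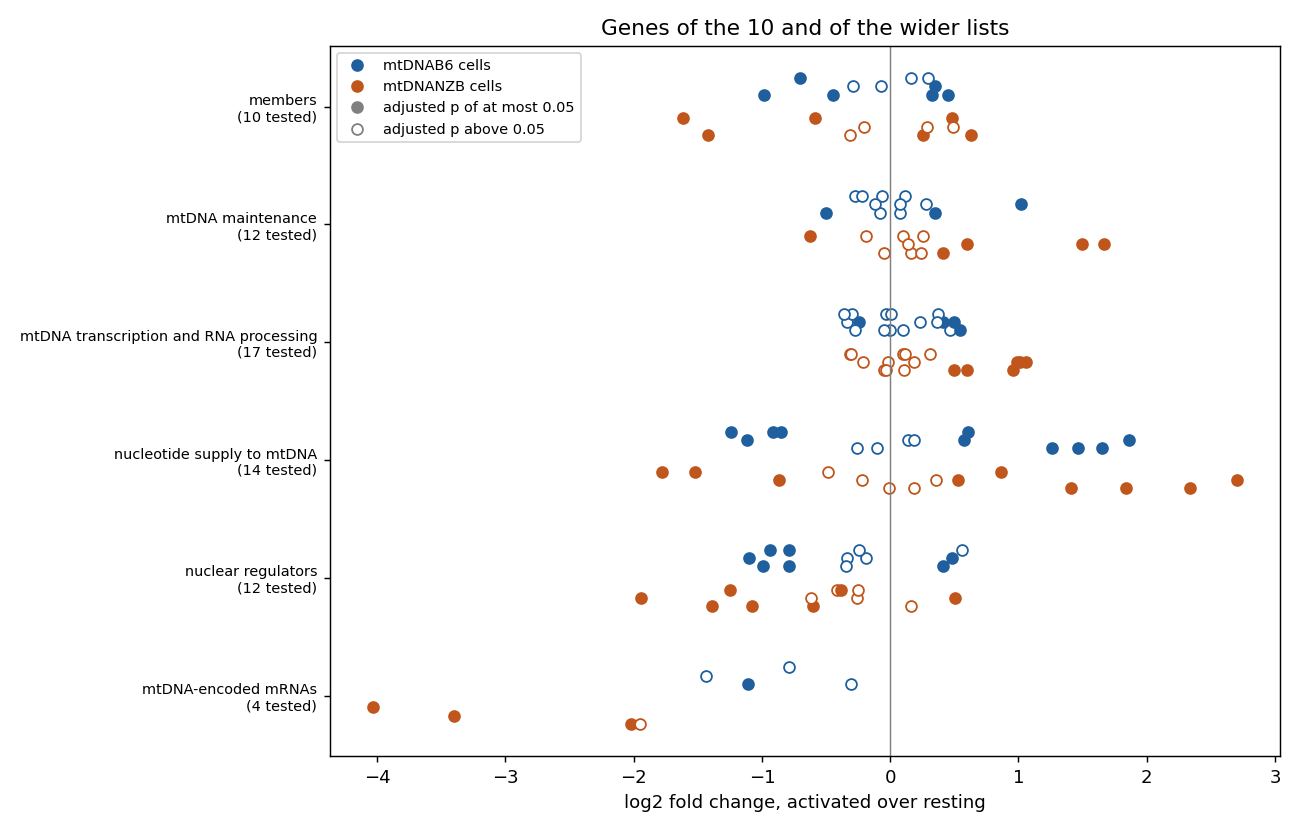
Log2 fold change, activated over resting (x axis), of each tested gene of the 10 members and of the 5 wider lists (rows), in mtDNAB6 (blue) and mtDNANZB cells (orange). Filled points have an edgeR adjusted p of at most 0.05. The nucleotide supply list spreads widest to the right, up to Rrm2 at 2.70, and the tested mRNAs encoded by mtDNA lie below 0 in both haplotypes.

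The genes whose 4 group means lay closest to those of Tfam, by distance between group means of log2 CPM centred per gene, were Abhd17c (distance 0.03), Abcb1b (0.06) and Eif2s3x (0.08) of 10566 genes. This likeness was over 4 group means of 24 libraries and rested on the 0 of resting mtDNANZB replicate 2: without that library the closest were Triobp (0.03), Ttc39b (0.03) and Arpc4 (0.04), and Tfam's centred means were -0.28 in resting and 0.15 in activated mtDNAB6 cells and -0.22 and 0.36 in mtDNANZB cells.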

How the data were processed

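The authors prepared bulk MARS-seq libraries from Tconv CD4+ cells, trimmed reads with cutadapt, dropped short ones, mapped the rest with STAR to 1000-base 3′ UTR regions of GRCm39 and counted them with htseq-count. The deposited table used here holds whole-number counts per gene after UMI deduplication and saturation correction, and a second deposited table of counts, whose making is not given in the sources used here, served as an alternative. 1 column of per-sample values matched no labelled sample and was not used. The authors tested with DESeq2, which is an alternative here.

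The 10 genes and the wider lists were chosen with earlier results of these data known. Counts of 24 libraries were fitted in 1 model with a mean per group by edgeR 4.0.16 (limma 3.58.1, R 4.3.3): filterByExpr, TMM, quasi-likelihood test, Benjamini-Hochberg adjustment over 10566 genes. The SE is the log2 fold change divided by the root of its F statistic, and intervals are 95% t intervals. CPM are TMM-scaled. Ratios within a library (pseudocount 0.5) were compared by two-sided exact permutation tests, with adjustment over 12. Besides the 10 members, genes of a list were named where called in the same direction in both haplotypes, at most 2 rising and 2 falling with the largest mean change, and the 3 tested genes closest to Tfam by their 4 group means of log2 CPM (pseudocount 0.5) were named. Samhd1, Gabpb1 and Ppargc1a were named outside this rule. Gene positions and overlaps are from GENCODE on GRCm39. Scripts were tested on simulated counts. Libraries held 51409 to 6449395 counts, and intervals cover the spread between libraries. The lowest chi-square per degree of freedom between replicates was 2.77, so no pair of libraries agreed within sampling noise. Numbers in the sample labels gave 9 possible pairs of resting and activated libraries, whose deviations correlated by -0.15 to 0.25. They were not paired in the main model, although such correlations cannot show that they came from separate mice. Alternatives were DESeq2 1.42.0, other scalings and filters, the second table, leaving out libraries, the library set as a term, replicate blocks and fits of only the 2 groups compared. Figures were drawn with matplotlib 3.10.9 in Python 3.11.15.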

Additional observations from a re-analysis of the deposited data

Results flagged for a closer look

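In activated mtDNAB6 cells, Polg2 in replicate 3 stood at 15.5 CPM, apart from the other 5 libraries, of which the nearest was at 11.5 CPM. The gap was 0.696 of the whole range of the group, and chance alone leaves gaps this marked in about 1 in 20 groups of this size. It was the 1 gap of this kind among 40 groups of values examined (10 genes in 4 groups). That is no more than chance is expected to give at this rate.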

How the results depend on the processing

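In mtDNAB6 cells the 3 higher members became 1 with the second table, with the replicate block by label number, and with the library set as a term with or without the 3 mtDNANZB libraries (resting replicates 2 and 6, activated replicate 6), and 1 to 4 without 1 library. The 3 lower members became 1 with the library set, with or without these 3. In mtDNANZB cells the 3 higher members became 5 with library totals alone and 0 with the replicate block by label number, with or without the 3. A fold limit of at least 1 on the log2 scale left 0 higher in either haplotype and 0 lower in mtDNAB6 cells. Whether libraries with the same label number came from the same mouse is not known. With the block by label number Tfam stood at 0.41 in mtDNAB6 and 0.48 in mtDNANZB cells on the log2 scale. Of the lists in mtDNAB6 cells, the 2 higher maintenance genes became 1 with the library set, with or without the 3. The 3 higher transcription genes became 5 with only the 2 groups compared and 1 with the library set without the 3. The 1 lower transcription gene became 0 with DESeq2, library totals, no filter, the second table, the block, or the library set without the 3, 3 with only 2 groups, 2 with the block without the 3, and 0 to 2 without 1 library. The 4 lower nucleotide genes became 2 with DESeq2. The 2 higher regulators became 1 with DESeq2, the block or the library set, each of the last 2 also without the 3, and 0 with the second table (1 to 2 without 1 library), and the 5 lower ones 8 with only 2 groups. The 1 lower mRNA encoded by mtDNA became 0 with DESeq2, library totals, the second table or the library set (also without the 3), 4 without the 3, 3 with the block (also without the 3) or only 2 groups, and 0 to 2 without 1 library. In mtDNANZB cells the 0 lower transcription genes became 1 with the stricter filter or without the 3 (also with the library set or the block) and 0 to 1 without 1 library, the 3 lower nucleotide genes 1 with only 2 groups, the 1 higher regulator 0 with the block without the 3, and the 3 lower mRNAs encoded by mtDNA 5 with DESeq2 or the second table and 1 with the block (also without the 3). In mtDNANZB cells the log2 ratio of Tfb2m to Tfb1m, which missed the threshold at -1.72, passed at -2.06 with all libraries and at -2.27 with the second table (-2.01 to -1.43 without 1 library). The ratio of Tfam to the summed mRNAs encoded by mtDNA missed it at 1.77 without the 3 (1.73 to 2.17 without 1 library), and that of Polg2 to Polg ran from -1.05 to -0.63 without 1 library. The cause of these shifts was not tested. Of the 10 genes Tfb2m had the fewest counts, 29 to 65 per group of 6 libraries.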
